A study of Rattus norvegicus with 12 samples.

Results

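Ccn1 (also called Cyr61, ENSRNOG00000014350) and Ccn2 (also called Ctgf, ENSRNOG00000015036) were followed through RNA-seq read counts of 2 rat kidney cell lines. They were chosen by their Ensembl identifiers, are 2 of the 21698 genes in the count table, and both were present. NRK-52E cells are epithelial and serve as a stand-in for kidney tubule cells, and NRK-49F cells are kidney fibroblasts. The 4 groups of 3 libraries were NRK-52E given vehicle, labelled Control, NRK-52E given 40 µM cisplatin, and NRK-49F grown in medium conditioned by untreated or by cisplatin-treated NRK-52E. These 2 media are called untreated medium and cisplatin medium here. All cells were kept in DMEM with 5% FBS. Cisplatin is a platinum compound used against tumours, which crosslinks DNA and harms the kidney tubule. By the protocol, NRK-52E at 50% confluence were exposed for 6 h and rinsed with PBS, and the new medium was then conditioned for 24 h. The design text gives 24 h of treatment instead, and 24 h in conditioned medium for NRK-49F, and the labels do not settle which time applies to the sequenced NRK-52E. Each line is a single established line, and nothing in the labels says that a group's libraries are separate cultures. The p-values then measure only the spread between these samples, which may be technical.

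CCN proteins are secreted matricellular proteins. They sit in the extracellular matrix without being its scaffold and signal to cells through integrins and heparan sulfate proteoglycans. Ccn1 and Ccn2 are short genes that respond quickly to growth factors, mechanical tension and injury, and both are widely used as readouts of YAP and TAZ, co-activators that act through TEAD transcription factors. CCN2 is also induced by TGF-beta and is a marker of fibrosis in the kidney. The title of the series names CCN1 as a product of injured tubular epithelium that mobilizes fibroblasts, and the sources used here do not say whether it was picked from these libraries. The direction of Ccn1 in NRK-52E is therefore not independent evidence for that role.

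The promoters of both genes are shown because TEAD sites near the start are a known feature of this pair, and because the data below compare how the 2 genes moved. The sequences are the 250 bases before the RefSeq start of each gene, written 5′ to 3′ along the gene, from the GRCr8 rat assembly, which is not stated to be the build behind the counts. Ccn1 is at chr2:237225690-237225939 and Ccn2 at chr1:22624615-22624864, both on the minus strand. Capitals mark every match to 5 motifs searched on both strands.
Ccn1: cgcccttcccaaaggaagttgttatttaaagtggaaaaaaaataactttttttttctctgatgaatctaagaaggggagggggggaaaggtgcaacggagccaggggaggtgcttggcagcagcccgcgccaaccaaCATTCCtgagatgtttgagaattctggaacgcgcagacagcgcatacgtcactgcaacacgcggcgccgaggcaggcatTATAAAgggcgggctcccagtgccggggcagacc
Ccn2: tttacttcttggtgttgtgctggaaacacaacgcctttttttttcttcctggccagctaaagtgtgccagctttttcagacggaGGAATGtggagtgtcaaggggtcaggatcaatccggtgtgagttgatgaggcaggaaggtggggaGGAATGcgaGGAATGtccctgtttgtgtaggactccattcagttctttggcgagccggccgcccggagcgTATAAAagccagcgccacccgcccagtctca

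The TEAD motif GGAATG matched once in the Ccn1 window, on the opposite strand, from 113 to 108 bases before the start. It matched 3 times in the Ccn2 window, on the strand of the gene, with first bases 166, 101 and 92 before the start. Among 33469 rat promoter windows of the same length, 12.1% held at least 1 match, 0.902% at least 2 and 0.0807% (27 windows) at least 3. The TATA motif TATAAA, the binding site of the TATA-binding protein, began 34 bases before the start of Ccn1 and 31 before that of Ccn2, and 12.9% of windows held it. The AP-1 motif TGACTCA (4.05% of windows), the SMAD motif GTCTAGAC (0.173%) and the SRF CArG box (1.5%) had no match in these letters in either window. Shorter or variant forms of these sites were not searched, so their absence cannot be read from this. No matched motif overlapped another, and a match describes the letters, not binding. Whether the number of matches bears on how the 2 genes moved was not tested.

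**Figure D1:**
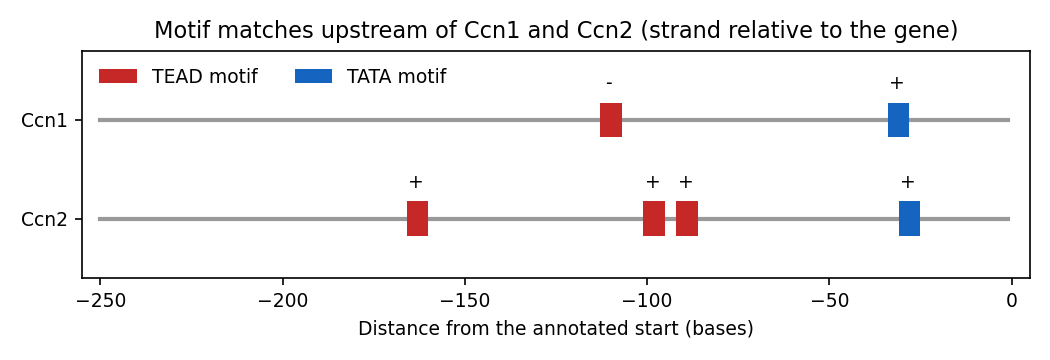
Motif matches in the 250 bases before the RefSeq start of Ccn1 and Ccn2, by distance from the start in bases, with TEAD matches in red, TATA matches in blue and the strand relative to the gene above each. Ccn1 has 1 TEAD match and Ccn2 has 3, and the TATA match begins 34 and 31 bases before the start.

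Library totals were 9684887 to 12549675 counts. Levels are given as CPM, counts per 1000000 scaled by edgeR's TMM factors over all 12 libraries. The factors were between 1.14 and 1.16 in NRK-52E, near 0.81 in NRK-49F with untreated medium and near 0.93 with cisplatin medium, so levels set across the lines depend on this scaling more than levels within NRK-52E do. Bulk counts cannot tell a change in RNA per cell from a change in the share of cells that express a gene.

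Ccn1 rose about 3-fold in NRK-52E given cisplatin. Its 3 vehicle libraries held 3901, 3452 and 3574 reads, or 292, 267 and 251 CPM. The 3 cisplatin libraries held 11822, 11084 and 9169 reads, or 883, 832 and 817 CPM. All cisplatin libraries lay above all vehicle libraries, with a smallest fold of 2.8 and a largest of 3.51 over the 9 pairs. The share of all genes whose groups separated in this way is not given, here or for the comparisons below. Separation is therefore a description of the libraries and does not set these genes apart from others. The means were 270 ± 20.5 and 844 ± 34.4 CPM (SD, n = 3 each). The log2 fold change was 1.63 with a standard error of 0.05, a 3.09-fold increase (edgeR quasi-likelihood test, Benjamini-Hochberg adjusted p = 1.68e-26). In the share of all reads counted to genes, Ccn1 went from 0.0308% ± 0.00231 to 0.0979% ± 0.0038 (SD, n = 3 each).

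Ccn2 rose about 5-fold in the same cells. Vehicle libraries held 5256, 4757 and 5033 reads (394, 368 and 354 CPM), and cisplatin libraries held 26799, 25706 and 23055 reads (2001, 1931 and 2054 CPM). The groups did not overlap, and the 9 pairwise folds ran from 4.91 to 5.8. The means were 372 ± 20.0 and 1995 ± 61.9 CPM (SD, n = 3 each). The log2 fold change was 2.41 with a standard error of 0.04, a 5.31-fold increase (edgeR adjusted p = 2.93e-32). After cisplatin Ccn2 took 0.231% ± 0.00663 of all reads counted to genes, against 0.0424% ± 0.00224 with vehicle (SD, n = 3 each).

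**Figure D2:**
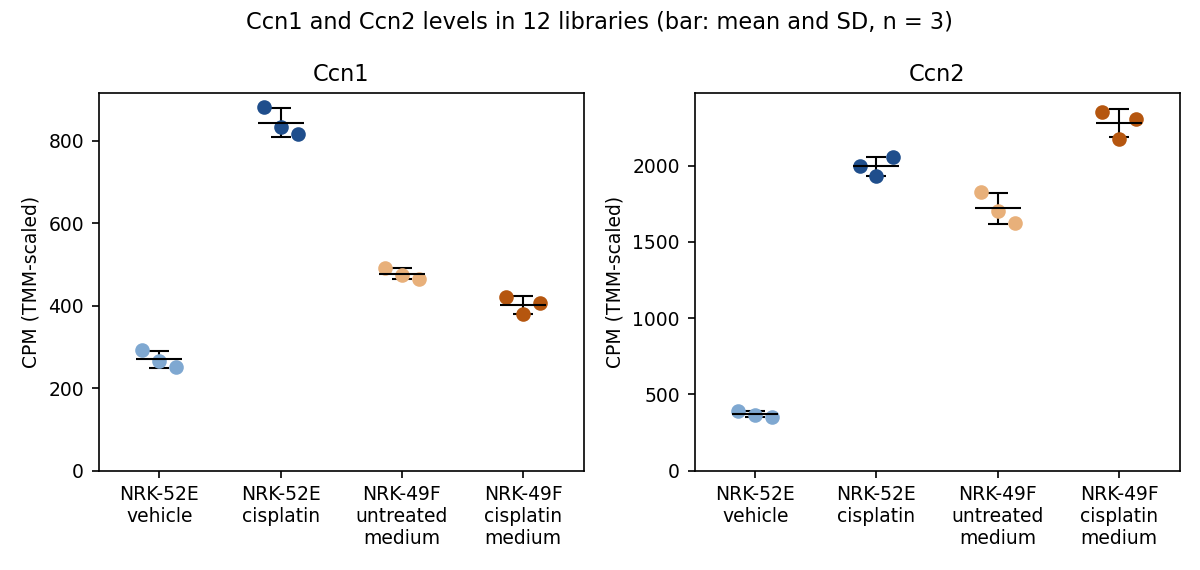
TMM-scaled CPM of Ccn1 (left) and Ccn2 (right) in each of the 12 libraries, by group, where points are libraries and bars show the mean and SD of 3. Cisplatin libraries of NRK-52E lie at 817 to 883 CPM for Ccn1 and 1931 to 2054 CPM for Ccn2, above all vehicle libraries. In NRK-49F the cisplatin medium libraries lie lower for Ccn1 on this scaling and higher for Ccn2, whereas without TMM factors the Ccn1 groups overlap.

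Both genes therefore passed the test in NRK-52E, where 76.2% of 12508 genes tested passed in either direction and 38.7% passed as increases (37.6% as decreases). A larger log2 fold change than that of Ccn1 was found for 8.93% of genes tested and than that of Ccn2 for 5.63%, against a median over all genes of 0.01. Among the 2153 genes with a mean of at least 100 CPM over the line's libraries, whose median log2 fold change was -0.11, 63 genes had a larger one than Ccn1 (2.93%) and 25 a larger one than Ccn2 (1.16%). Both increases also passed when tested against a 1.5-fold change instead of no change (adjusted p = 7.14e-22 for Ccn1 and 1.2e-29 for Ccn2, edgeR glmTreat). That test was passed by 3883 of the 12508 genes tested.

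**Figure D3:**
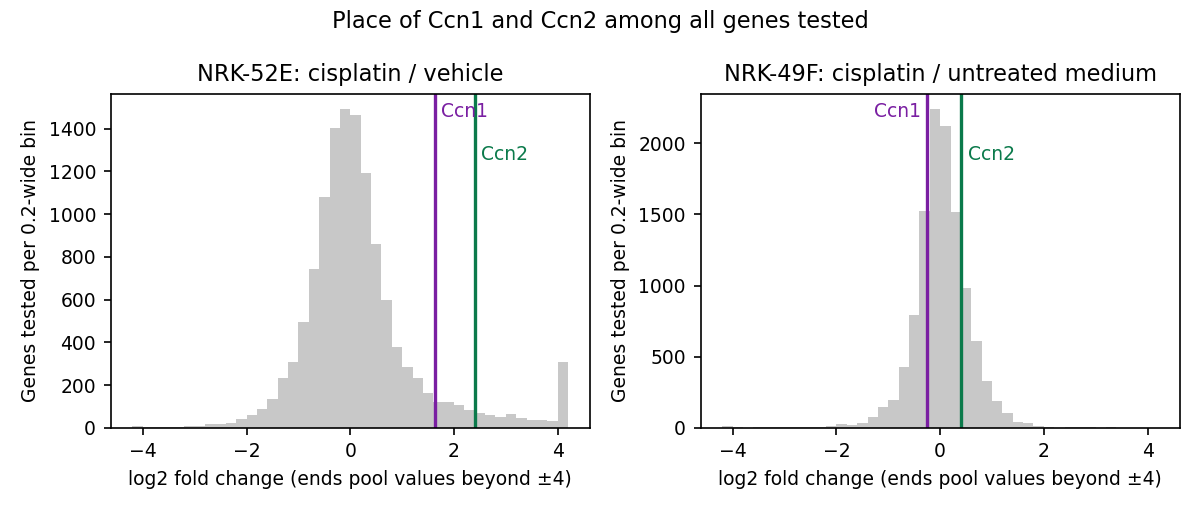
Numbers of genes by log2 fold change in bins 0.2 wide, for cisplatin against vehicle in NRK-52E (left) and cisplatin medium against untreated medium in NRK-49F (right), with Ccn1 in purple and Ccn2 in green. In NRK-52E the genes lie at 1.63 and 2.41, in the right tail. In NRK-49F they lie at -0.25 and 0.41 with TMM scaling, Ccn1 below 0 and within the bulk of genes and Ccn2 above 0.

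In NRK-49F the question was how fibroblasts respond to medium from injured epithelial cells, and here the 2 genes parted. Ccn2 rose modestly. Its libraries held 17976, 14340 and 15052 reads in untreated medium (1828, 1704 and 1626 CPM) and 23585, 24325 and 27102 reads in cisplatin medium (2355, 2177 and 2309 CPM). All cisplatin medium libraries lay above all untreated medium libraries, by 1.19-fold to 1.45-fold over the 9 pairs. The means were 1719 ± 102 and 2280 ± 92.0 CPM (SD, n = 3 each). The log2 fold change was 0.41 with a standard error of 0.04, a 1.33-fold increase (edgeR adjusted p = 3.42e-11).

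Ccn1 was slightly lower in cisplatin medium on the TMM scale. Its libraries held 4840, 3989 and 4313 reads in untreated medium (492, 474 and 466 CPM) and 4218, 4236 and 4760 reads in cisplatin medium (421, 379 and 406 CPM). On this scale the groups did not overlap, with means of 477 ± 13.5 and 402 ± 21.2 CPM (SD, n = 3 each). The log2 fold change was -0.25 with a standard error of 0.04, which is 0.843 of the level in untreated medium (edgeR adjusted p = 2.41e-06).

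The Ccn1 call in NRK-49F rests on the scaling. With library size as the only scaling, the log2 fold change was -0.05 (standard error 0.04, edgeR adjusted p = 0.318), and 3 of the 9 pairs of libraries had the higher level in cisplatin medium. In the share of all reads counted to genes Ccn1 was at 0.0387% ± 0.00118 (untreated medium) and 0.0375% ± 0.00207 (cisplatin medium, SD, n = 3 for both), and these groups overlapped. This scaling shifted the median gene by 0.20 on the log2 scale. It also turned the split of called genes from 3555 up and 3568 down to 5916 up and 1928 down. The decrease of Ccn1 is thus a decrease relative to the bulk of genes. Ccn2 rose under every scaling tried, with log2 fold changes between 0.40 (RLE factors) and 0.61 (library size only). The change of neither gene passed a test against a 1.5-fold change (edgeR glmTreat adjusted p = 1 for both). That test was passed by 1184 of the 11525 genes tested.

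In NRK-49F, 61.8% of 11525 genes tested passed in either direction, 30.8% as increases and 31% as decreases. A larger log2 fold change than that of Ccn2 was found for 19.6% of genes tested and a smaller one than that of Ccn1 for 25.2%, where the median over all genes was 0.02. Among the 2458 genes with a mean of at least 100 CPM in this line, whose median was -0.16, 88 (3.58%) had a larger value than Ccn2, and 37.0% had a smaller one than Ccn1. Ccn1 thus lay among the middle of abundant genes and Ccn2 near their upper end.

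**Figure D4:**
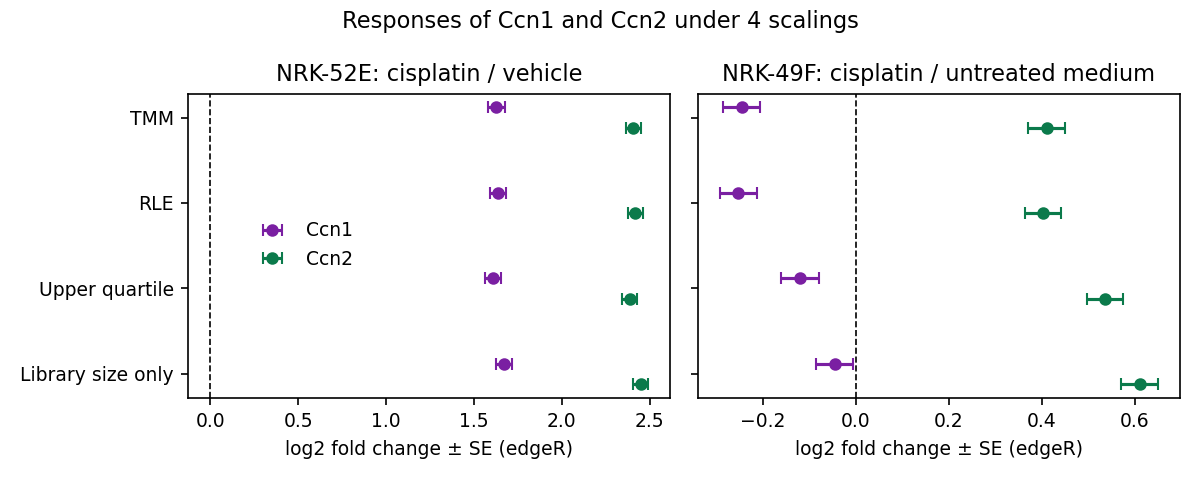
Log2 fold changes of Ccn1 (purple) and Ccn2 (green) with edgeR standard errors under 4 scalings, for NRK-52E (left) and NRK-49F (right), with a dashed line at no change. In NRK-52E the values stay within 1.61 to 1.67 and 2.39 to 2.45. In NRK-49F Ccn1 moves from -0.25 with TMM to -0.05 with library size only, and Ccn2 from 0.41 to 0.61.

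The number of Ccn2 reads per Ccn1 read within a library needs no scaling between libraries. It is not corrected for transcript length, so only its change can be read. In NRK-52E it was 1.35, 1.38 and 1.41 in vehicle libraries and 2.27, 2.32 and 2.51 in cisplatin libraries. Every cisplatin library lay above every vehicle library, and the ratio was 1.72-fold higher. In NRK-49F it was 3.71, 3.59 and 3.49 in untreated medium and 5.59, 5.74 and 5.69 in cisplatin medium, again without overlap and 1.58-fold higher. Both exact two-sided permutation tests over libraries gave p = 0.1, the smallest value that 3 libraries against 3 allow, so neither could pass 0.05. The ratio was higher in 9 of 9 pairs of libraries in each line, which only restates that the groups did not overlap. In NRK-52E both genes rose and Ccn2 rose more, and in NRK-49F Ccn2 rose and Ccn1 did not. On the log2 scale the ratio changed by 0.78 (NRK-52E) and 0.66 (NRK-49F), and the difference between these was not tested.

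**Figure D5:**
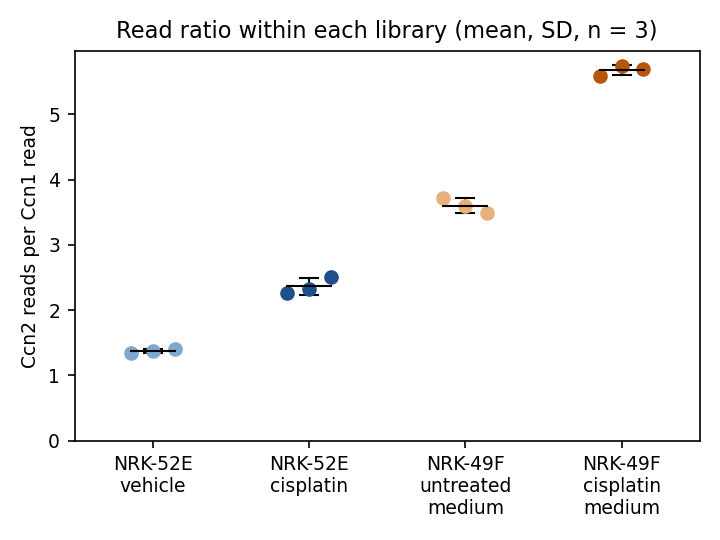
Ccn2 reads per Ccn1 read in each of the 12 libraries, by group, where points are libraries and bars show the mean and SD of 3. The ratio is 1.35 to 1.41 and 2.27 to 2.51 in NRK-52E with vehicle and cisplatin, and 3.49 to 3.71 and 5.59 to 5.74 in NRK-49F with untreated and cisplatin medium.

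Both genes responded more in the epithelial cells than in the fibroblasts, by a contrast of the 4 groups in one fit. The log2 fold change of Ccn1 was higher in NRK-52E by 1.89 (standard error 0.06, edgeR adjusted p = 6.51e-29). That of Ccn2 was higher by 2.02 (standard error 0.06, edgeR adjusted p = 4.96e-31). In this contrast 66.5% of 13127 genes passed in either direction and 33.9% with the higher value in NRK-52E (32.6% with the lower). A larger difference than that of Ccn1 was found for 10.2% of genes and than that of Ccn2 for 9.49%. NRK-52E was given the drug and NRK-49F a medium, so line and agent cannot be told apart. Whether the cisplatin medium still held cisplatin was not tested.

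Without cisplatin the fibroblast line carried more of both RNAs. In NRK-49F with untreated medium Ccn2 was 4.62-fold above NRK-52E with vehicle (log2 difference 2.21, standard error 0.04, edgeR adjusted p = 4.75e-39). Ccn1 was 1.77-fold above it (log2 difference 0.82, standard error 0.05, edgeR adjusted p = 2.74e-21). With library size only these log2 differences were 1.72 and 0.33, and both still passed (edgeR adjusted p = 9.18e-35 and 7.91e-09). That scaling moved the median difference of all genes by -0.49. Between these groups 81.7% of genes passed in either direction and 40.9% as higher in NRK-49F, and line and medium cannot be told apart. A larger log2 difference than that of Ccn2 was found for 9.36% of genes and than that of Ccn1 for 23.8%. The 2345 genes with a mean of at least 100 CPM over the 12 libraries had a median log2 difference of 0.28. Of these, 8.57% had a larger one than Ccn2 and 30.2% a larger one than Ccn1. In absolute size, 18.2% of all genes tested differed more than Ccn2 and 49.6% more than Ccn1.

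From lowest to highest, the order of Ccn1 levels was NRK-52E with vehicle, NRK-49F with cisplatin medium, NRK-49F with untreated medium and NRK-52E with cisplatin. Neighbours in this order differed by 1.49-fold, 1.19-fold and 1.77-fold, and each step passed in the fit of 12 libraries (edgeR adjusted p = 1.33e-15, 7.46e-06 and 8.43e-22). The middle step, between the NRK-49F groups, did not pass with library size only (log2 difference 0.05, edgeR adjusted p = 0.4). NRK-52E with cisplatin held the highest Ccn1 level of the 4 groups, under both scalings.

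For Ccn2 the order was NRK-52E with vehicle, NRK-49F with untreated medium, NRK-52E with cisplatin and NRK-49F with cisplatin medium. The steps were 4.62-fold, 1.16-fold and 1.14-fold (edgeR adjusted p = 4.75e-39, 8.47e-06 and 4.4e-05). The last step turned with library size only, where NRK-49F with cisplatin medium was lower than NRK-52E with cisplatin by 0.12 on the log2 scale (edgeR adjusted p = 0.00679). Which of these groups held the most Ccn2 thus depends on the scaling, whereas NRK-52E with vehicle was lowest under both. The steps between neighbours passed for 78.6%, 53.8% and 84.7% of all genes in the order of Ccn1, and for 81.7%, 84.7% and 82.7% in that of Ccn2.

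The genes with the most similar pattern were sought over 12048 genes with a mean of at least 1 CPM. The measure was the root mean square difference of log2 CPM over the 12 libraries, after each gene was centred on its own mean. It compares the direction and the size of changes, and not levels. The nearest gene to Ccn1 was ENSRNOG00000017037, at 0.10 log2 units where the median gene was at 0.78. It went from 21.2 ± 0.268 to 66.0 ± 3.53 CPM in NRK-52E and from 40.0 ± 2.51 to 33.7 ± 1.02 CPM in NRK-49F (SD, n = 3 each). The nearest gene to Ccn2 was ENSRNOG00000026293, at 0.14 log2 units where the median gene was at 1.16. It went from 24.3 ± 1.07 to 150 ± 6.79 CPM in NRK-52E and from 118 ± 9.55 to 187 ± 3.03 CPM in NRK-49F (SD, n = 3 each). Ccn1 and Ccn2 were 0.75 log2 units apart. Of all genes, 46.0% were nearer to Ccn1 than Ccn2 was, and 5.17% were nearer to Ccn2 than Ccn1 was. Size enters this distance: Ccn1 and Ccn2 rose by 1.63 and 2.41 log2 units in NRK-52E. Between the untreated lines both were higher in NRK-49F, by 0.82 and 2.21. A gene that changed little can therefore lie nearer to Ccn1 than Ccn2 does. The 12 libraries share lines and treatments, so these distances are a description and carry no test. The count table holds no gene symbols, so the other CCN family genes, their receptors, the YAP, SRF and TGF-beta genes and markers of the labelled cell types were not analysed here.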

How the data were processed

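The authors deposited raw read counts per Ensembl rat gene for 12 libraries. Per the labels' protocols, the kit was TruSeq stranded mRNA. The submitters' processing notes name STAR 2.7.10a, featureCounts and Subread. Build, annotation and strand setting of the counting: not given in the sources used here, so reads of overlapping genes may be mixed. Columns were assigned by sample title. Members and gene lists were chosen with earlier results of these data known. Symbols of the 2 members came with their selection. None of the table's identifiers matched the RefSeq table (0 of 21698), so 7 gene lists and 4 marker lists were not run.

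Each line was tested with edgeR 4.0.16 in R 4.3.3: filterByExpr (minimum count 10, total 15), TMM, glmQLFit, glmQLFTest, Benjamini-Hochberg over all genes, threshold 0.05. Contrasts across lines used one fit of 12 libraries. Each standard error is the size of the log2 fold change over the square root of F. DESeq2 1.42.0, other scalings, no filter and left-out libraries were alternatives. Fits were also tested on simulated data. Replicates differed beyond sampling noise (chi-square 1.67 to 3.84 per degree of freedom). Read ratios used a pseudocount of 0.5. Named genes are the members and the genes of most similar pattern, of which 1 per member is printed because identifiers carry no symbol. Promoters (2 of 2 matched by symbol) are RefSeq GRCr8. Figures used matplotlib 3.10.9.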

Additional observations from a re-analysis of the deposited data

Results flagged for a closer look

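Both genes are given here because the contrast of responses across the 4 groups passed, as it did for 66.5% of 13127 genes tested. The log2 fold change in NRK-52E exceeded that in NRK-49F by 1.89 for Ccn1 (edgeR adjusted p = 6.51e-29) and by 2.02 for Ccn2 (edgeR adjusted p = 4.96e-31). With library size only the values were 1.72 and 1.84. Single deviating libraries were not sought, since each group holds only 3.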

How the results depend on the processing

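Both increases in NRK-52E, both differences between the responses and both differences between the untreated lines kept their direction and their call under every alternative tried. In NRK-49F, Ccn1 kept its direction but did not pass with library size only (log2 fold change -0.046, adjusted p = 0.318), and neither Ccn1 (-0.25) nor Ccn2 (0.41) passed against a 1.5-fold change. In the order of levels, whose alternatives were chosen after seeing the data, library size only left the Ccn1 step between the NRK-49F groups at 0.046 and turned the last Ccn2 step to -0.12. With any 1 library left out, the log2 fold changes of Ccn1 and Ccn2 ranged from 1.57 to 1.68 and from 2.36 to 2.44 in NRK-52E, and from -0.28 to -0.21 and from 0.37 to 0.46 in NRK-49F. The log2 ratio of Ccn1 to Ccn2 reads changed by -0.81 to -0.73 and by -0.68 to -0.64. Against a 1.5-fold change, called genes numbered 3883 in NRK-52E, 1184 in NRK-49F, 4512 for the difference and 6709 between the untreated lines, where the tests against no change called 9536, 7123, 8724 and 10729. Upper-quartile factors split the NRK-49F calls into 4973 up and 2456 down. Library size only split those between the untreated lines into 3481 and 7696, against 5364 and 5365 with TMM, and those for the difference into 3596 and 5199, against 4447 and 4277.

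Same-numbered libraries did not deviate together (r across genes from -0.14 to -0.02 in NRK-52E and from -0.03 to 0.002 in NRK-49F), so the numbers were not taken as pairs. With the replicate block the log2 fold changes of Ccn1 and Ccn2 were 1.63 and 2.41 in NRK-52E and -0.25 and 0.41 in NRK-49F, and no call changed. Depth limits these values little: the counting error of a Ccn1 or Ccn2 count was 0.63% to 1.66% of it, against 2.83% to 7.59% of spread between libraries.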

Other observations

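In NRK-52E with vehicle the coefficient of variation of CPM was 7.59% for Ccn1 and 5.38% for Ccn2, and that of the ratio of their reads was 2.21%. In NRK-49F with cisplatin medium these values were 5.27%, 4.04% and 1.36%. The NRK-49F libraries in untreated medium gave 2.83%, 5.94% and 3.12%. In NRK-52E with cisplatin they were 4.08%, 3.10% and 5.51%, and the ratio varied more than either gene. The genes ranked the 3 libraries in the same order in 3 of 4 groups, NRK-52E with cisplatin being the exception. Both CPM values of a library are divided by the same total and TMM factor, so they are not independent. The share of other gene pairs that agree in this way is not given. No test was made of this pattern, and it does not set this pair apart from others.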
